A study of Mus musculus with 2 samples.

Results

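Klk1b8, Klk1b9, Klk1b21, Klk1b22, Klk1b24, Klk1b26 and Klk1b27 are 7 mouse genes of the glandular kallikrein family, out of 32285 genes counted in single cells of whole testis. They were taken by symbol and were chosen by measured values of these data: their levels in Leydig cells and spermatids, and a lower level of Klk1b8 in cKO elongating spermatids. Those levels and that contrast are therefore given as a description. Whole testis was dissociated and single cells were sequenced from the 3′ end in droplets, giving 1 control library (Dot1L fl/+; Cre-) and 1 conditional knockout library (Dot1L fl/delta; Ddx4-Cre+, here cKO). Both genotypes carry a floxed Dot1L allele, a gene whose product adds methyl groups to lysine 79 of histone H3. Ddx4 is expressed in germ cells, so somatic cells such as Leydig cells are not where the Cre acts, although by the labels they carry 1 delta allele in the cKO. The labels give neither an age nor a number of animals per library, and with 1 library per genotype no difference below has a replicate check. All 95% intervals cover counting error only.

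Tissue kallikreins are secreted serine proteases that are made as inactive precursors and cut peptide bonds in substrates such as kininogen. In mice the family expanded by tandem duplication into the Klk1b genes, whose products are best known from the submandibular gland, where they process growth factor precursors. In the testis, Leydig cells lie between the tubules and make androgens, and spermatids are the haploid germ cells that elongate and repack their chromatin from histones to transition proteins and protamines.

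The control library held 155487418 UMIs (molecular barcodes that count captured RNA molecules once each) in 17408 barcodes, and the cKO library 156518838 in 20601. After filtering, 15459 and 17732 cells were kept, and 78 of their barcode sequences occurred in both libraries. Cells were clustered and the clusters called by fixed markers, so each class below is a set of cells like the named type. Round and elongating spermatid-like cells split by library: clusters 2 and 11 (control) and 16 and 24 (cKO) made up nearly all of the round class, and clusters 3, 7 and 9 (control), 14 and 19 (cKO) and 10 (both) the elongating class. Cluster 24, called round, and cluster 3, called elongating, shared 3 of their 10 leading genes (Actrt3, Cst13 and Tuba8), so the boundary between the classes may not fall at the same point in both libraries. Dot1l itself was at 44.1 CPM in control and 7.61 CPM in cKO round spermatid-like cells, and at 89.4 and 54.4 CPM in mid to late spermatocyte-like cells, where CPM is the UMIs of a gene per 1000000 UMIs of its class. A 3′ count need not reach the deleted exons, so it does not check the deletion itself.

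The 7 genes lie on the plus strand of chromosome 7 in GRCm38 (mm10), within 24 Klk1 and Klk1b genes that span 287 kb, 10 of them pseudogenes with no row in the count tables. The first 3 in order are Klk1b8 (chr7:43950664-43954941), Klk1b9 (chr7:43976061-43980376) and Klk1b26 (chr7:44012168-44016968). After them come Klk1b27 (chr7:44052290-44056712), Klk1b21 (chr7:44102328-44106583), Klk1b22 (chr7:44112673-44116922) and Klk1b24 (chr7:44188236-44192455). Each has 5 exons in GENCODE vM21. This order along the chromosome is also the order of their cell types: the first 3 were highest in elongating spermatid-like cells and the other 4 in Leydig-like cells.

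**Figure D1:**
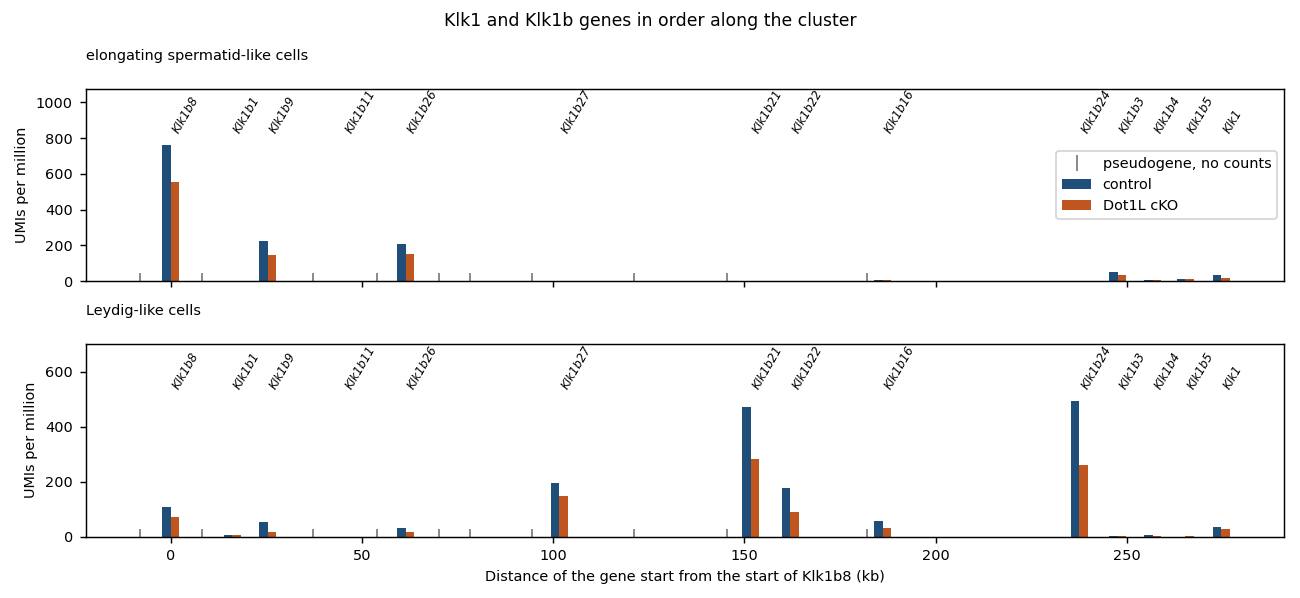
CPM of every counted Klk1 and Klk1b gene, control and cKO side by side, against the distance of the gene start from that of Klk1b8 in kb. The top panel shows elongating spermatid-like cells, led by Klk1b8 (759 and 557 CPM), Klk1b9 and Klk1b26, and the lower panel Leydig-like cells, led by Klk1b24 and Klk1b21. Grey ticks mark pseudogenes without counts.

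The upstream sequences are shown because the data place copies of one gene family in different cell types. The lines below give the 200 bases before the RefSeq start site (GRCm38.p6, plus strand, 5′ to 3′) of 2 genes of the spermatid set, 2 of the Leydig set and Klk1b22, at chr7:43950466-43950665, chr7:43975861-43976060, chr7:44188036-44188235, chr7:44052090-44052289 and chr7:44112473-44112672. Capitals in Klk1b8 and Klk1b9 mark 8-base words that Klk1b8, Klk1b9 and Klk1b26 all hold and that Klk1b21, Klk1b24 and Klk1b27 all lack. Capitals in Klk1b24, Klk1b27 and Klk1b22 mark the reverse, words of all of Klk1b21, Klk1b24 and Klk1b27 that the spermatid set lacks.
Klk1b8: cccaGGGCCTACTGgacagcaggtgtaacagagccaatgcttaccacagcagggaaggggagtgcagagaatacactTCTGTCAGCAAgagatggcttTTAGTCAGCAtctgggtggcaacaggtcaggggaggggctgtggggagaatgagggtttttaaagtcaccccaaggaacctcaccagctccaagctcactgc
Klk1b9: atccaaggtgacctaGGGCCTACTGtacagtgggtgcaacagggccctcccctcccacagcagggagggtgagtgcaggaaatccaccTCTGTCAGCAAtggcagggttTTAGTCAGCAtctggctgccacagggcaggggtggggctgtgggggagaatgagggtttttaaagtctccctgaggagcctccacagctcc
Klk1b24: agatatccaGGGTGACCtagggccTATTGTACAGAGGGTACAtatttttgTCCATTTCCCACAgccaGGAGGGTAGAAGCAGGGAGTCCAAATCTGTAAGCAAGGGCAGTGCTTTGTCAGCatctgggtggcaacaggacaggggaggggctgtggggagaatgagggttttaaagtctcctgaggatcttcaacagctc
Klk1b27: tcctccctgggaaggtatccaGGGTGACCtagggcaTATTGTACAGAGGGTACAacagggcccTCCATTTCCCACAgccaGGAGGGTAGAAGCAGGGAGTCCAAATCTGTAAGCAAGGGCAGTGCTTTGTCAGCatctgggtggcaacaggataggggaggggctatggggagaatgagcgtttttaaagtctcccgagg
Klk1b22: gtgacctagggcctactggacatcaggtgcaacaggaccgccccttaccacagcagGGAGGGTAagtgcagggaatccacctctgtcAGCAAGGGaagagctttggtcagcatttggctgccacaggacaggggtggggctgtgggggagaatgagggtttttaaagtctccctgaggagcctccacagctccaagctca

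Over the 300-base RefSeq windows (250 before the start to 50 after it), 53 words were particular to Klk1b21, Klk1b24 and Klk1b27 in this sense and 9 to Klk1b8, Klk1b9 and Klk1b26. Identity was taken over the aligned part of the 250 bases before the start, without overhanging ends. Klk1b21 and Klk1b24 were 97.7% identical over it, Klk1b21 and Klk1b27 92.5%, and Klk1b24 and Klk1b27 89.6%. Within the spermatid set identity was 81.7% for Klk1b8 and Klk1b9, 83.3% for Klk1b9 and Klk1b26 and 76.5% for Klk1b8 and Klk1b26. Overall identity did not split by cell type: Klk1b26 was nearer to Klk1b21 (81.3%), Klk1b24 (80.7%) and Klk1b27 (83.1%) than to Klk1b8. Klk1b22, a Leydig gene, was most like the spermatid gene Klk1b9 (87.2%) and 76.2% identical to Klk1b21. It held 2 of the 53 words and 6 of the 9. Known words were searched on both strands. CAAGGTCA, which NR5A1 binds, was found in the Klk1b21 window alone, on the minus strand 247 to 240 bases before the start, against 1.56% of 32851 RefSeq promoters. That window reaches further upstream in the shared sequence than those of Klk1b24 and Klk1b27. By the position of the shared words, the matching stretch of these copies would lie outside their windows. Whether they hold the word was therefore not tested. AGAACA, a core word of androgen response elements, was found only in Klk1b24, against 19.0% of promoters. TATAAA and the cAMP response element words TGACGTCA, TGACGT and TGACG were in none of the 7 windows, against 13.6%, 1.79%, 7.51% and 20.8% of promoters. TTTAAA, searched after the sequences were seen, was in all 7, against 13.2% of promoters. It lay between 44 and 12 bases before the start in 6 genes and 4 bases after it in Klk1b21, whose RefSeq start lies upstream of its GENCODE start.

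Because the libraries read the 3′ end, copies that share it may share UMIs. Of the 40-base words in the last 400 bases of each transcript, 8.59% were shared with any other gene in Klk1b8, 23.3% in Klk1b9 and 13.3% in Klk1b26. The share was higher in the Leydig set, at 47.1% in Klk1b21, 37.4% in Klk1b24 and 31.6% in Klk1b22, with 23.3% in Klk1b27. Klk1b21 and Klk1b24 shared 26.9% with each other. How reads that fit several copies were counted was not checked. UMIs may thus be misplaced or missing, to a different degree in each gene, and comparisons of level between members are uncertain. Sharing also crossed the sets: Klk1b26 shared 9.70% with Klk1b21 and 9.70% with Klk1b24, more than it shared with Klk1b8. Klk1b8 shared 6.65% with Klk1b24, and Klk1b9 shared none with Klk1b8, Klk1b26, Klk1b21, Klk1b24 or Klk1b27.

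Klk1b8 was the most abundant member. In elongating spermatid-like cells it had 25979 UMIs in 3654 control cells (759 CPM, interval 750 to 768) and 12089 UMIs in 2899 cKO cells (557 CPM, 547 to 567). These cells held 85.9% of its UMIs among kept control cells and 71.4% among kept cKO cells. In round spermatid-like cells the level was 54.6 CPM in control and 67.3 CPM in cKO, and in mid to late spermatocyte-like cells 4.68 and 3.91 CPM. The level thus stood highest in elongating spermatid-like cells in both libraries. Because 1 UMI stands for 1 transcript end, levels of different genes are compared here without a correction for length.

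Klk1b9 and Klk1b26 followed the same course at a lower level. In elongating spermatid-like cells Klk1b9 was at 224 CPM (7678 UMIs) in control and 147 CPM (3181 UMIs) in cKO. Klk1b26 was at 207 CPM (7092 UMIs) and 151 CPM (3277 UMIs). The intervals of the control levels, 219 to 229 and 202 to 212 CPM, do not overlap, whereas those of the cKO levels, 142 to 152 and 146 to 156 CPM, do. By counting error alone, Klk1b9 thus stood above Klk1b26 only in the control library. Their 3′ words were shared with other genes to different degrees, 23.3% and 13.3%. The part of this sharing in the order was not tested. Klk1b9 and Klk1b26 in round spermatid-like cells stood at 15.4 and 14.3 CPM in control and at 18.3 and 18.7 CPM in cKO.

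The other 4 members were nearly absent from germ cells. In control elongating spermatid-like cells Klk1b21 had 12 UMIs, Klk1b24 3, Klk1b27 11 and Klk1b22 0, which allows up to 0.0876 CPM. In the cKO the counts were 11, 6, 36 and 2. Klk1b27 stood at 0.321 CPM in control and 1.66 CPM in cKO elongating spermatid-like cells, a log2 ratio of 2.37 (1.36 to 3.49). Free RNA, estimated per cell from spermatid markers in somatic cells, would give 7.21 of the 11 control and 26.7 of the 36 cKO UMIs. For Klk1b21 the same estimate, 15.9 and 47.5 UMIs, is above the 12 and 11 counted, so it runs high for these genes. The part of free RNA in the ratio was not tested.

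**Figure D2:**
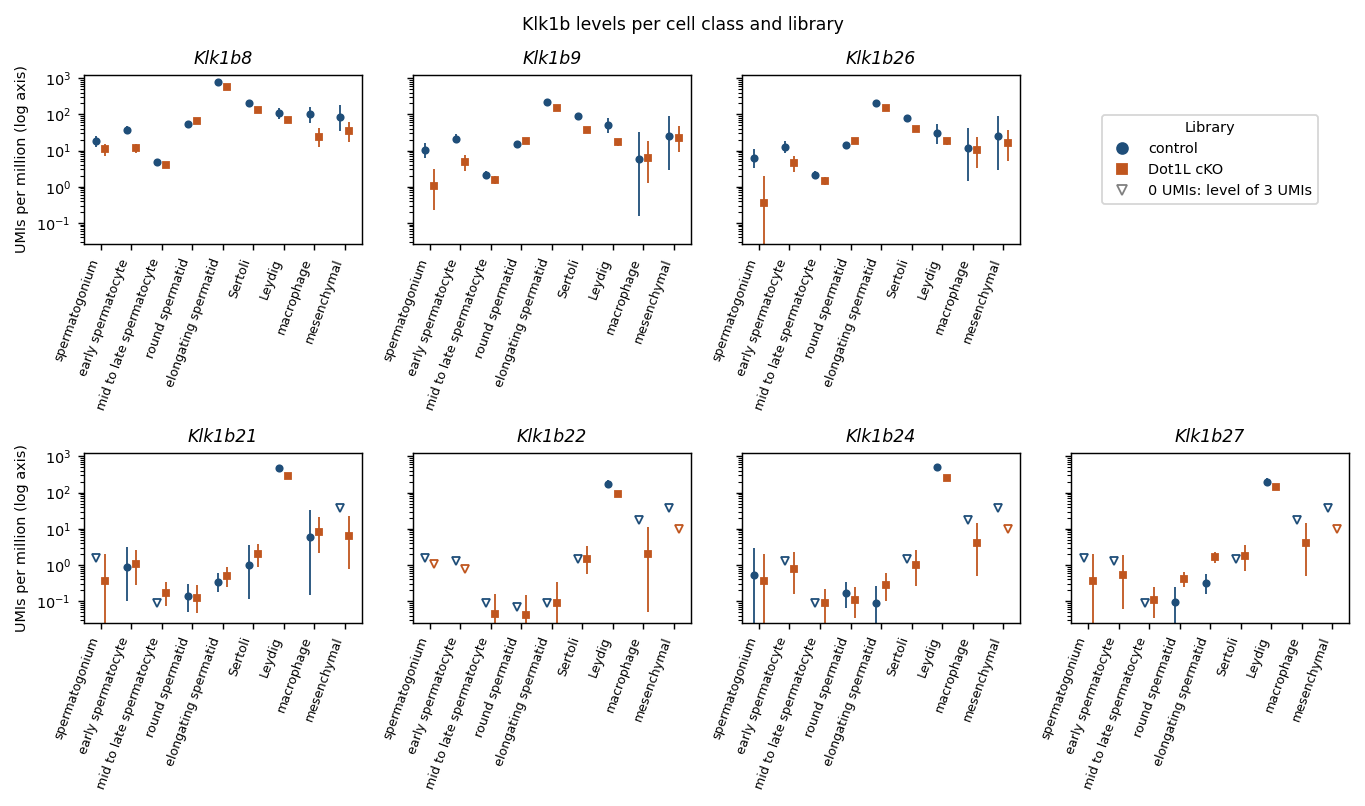
CPM (log axis) of each member in 9 cell classes, circles for control and squares for cKO, with 95% counting intervals. Open triangles mark 0 UMIs, drawn at the level that 3 UMIs would give. Klk1b8, Klk1b9 and Klk1b26 peak in elongating spermatids, and the other 4 are highest in Leydig cells.

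UMIs of the spermatid set also appeared in cells that are not spermatids. Klk1b8 was at 209 CPM in control and 132 CPM in cKO Sertoli-like cells, at 106 and 70.5 CPM in Leydig-like cells and at 101 and 24.3 CPM in macrophage-like cells. In control the intervals for Leydig-like (75.4 to 145), macrophage-like (59.1 to 162) and mesenchymal-like cells (34.6 to 177) overlapped, and no order among them can be read. Tnp1, Tnp2, Prm1 and Prm2, the transition protein and protamine genes of late spermatids, moved with these levels: together they gave 8.59% of control Sertoli-like UMIs and 3.85% of control macrophage-like UMIs. Set against those 4 late genes, Klk1b8 stayed between 1.54 and 3.59 UMIs per 1000 late gene UMIs over 9 classes in both libraries. Klk1b9 varied more on this scale, at 0.804 in control elongating spermatid-like (0.786 to 0.822), 1.02 in Sertoli-like (0.88 to 1.19) and 1.75 in Leydig-like cells (1.05 to 2.73), and Klk1b26 ran from 0.0798, from 1 UMI, to 1.01. There were 2.72 Klk1b8 UMIs per 1000 late gene UMIs in control elongating spermatid-like cells (2.69 to 2.75), 2.44 in Sertoli-like (2.21 to 2.68), 2.64 in macrophage-like (1.54 to 4.22) and 2.50, from 7 UMIs, in mesenchymal-like cells. In the cKO library the same classes gave 2.60, 2.42, 1.54 and 1.82. In Leydig-like cells it was 3.59 (2.55 to 4.91) in control and 2.74 in cKO, and free RNA was estimated to give 46.1% and 9.70% of the Klk1b8 UMIs there. The estimate has a fixed upper limit of UMIs per cell, so cells with many UMIs get a small free share. The remainder is therefore not shown to be made by Leydig cells.

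A Klk1b8 UMI was found in 76.5% of control and 75.1% of cKO elongating spermatid-like cells, with medians of 7465 and 5861 UMIs per cell. In macrophage-like cells, which should lack it, the shares were 13.6% and 7.01%, at medians of 2942 and 2399. After each cell was thinned to 2000 UMIs, which left out 371 control and 331 cKO cells, the elongating shares were 63.8% (62.1 to 65.4) and 58.8% (56.9 to 60.8). The thinned shares for Klk1b9 were 31.9% and 22.5%, and for Klk1b26 31.6% and 24.1%. All 3 genes were thus found in fewer cKO cells at equal depth.

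Between the libraries, all 3 spermatid members were lower in cKO than in control elongating spermatid-like cells. The log2 ratio of cKO to control was -0.45 (-0.48 to -0.42) for Klk1b8, -0.61 (-0.67 to -0.55) for Klk1b9 and -0.46 (-0.52 to -0.40) for Klk1b26. The median over all 11790 genes with 50 or more UMIs in these cells was 0.24. Over 1.5-fold lower was 1 of the 3 measured members, Klk1b9, where 11.3% of all measured genes were lower and 28.1% higher, and nothing is read from this count because the contrast chose the members. Summed, the 3 genes stood at 1190 CPM in control and 854 CPM in cKO.

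The difference moved with the share of late gene RNA. Cells of 2000 or more UMIs outside the Leydig set were binned by the share of their UMIs from the 4 late genes, a measure that itself differed between libraries, at 27.9% of control and 21.4% of cKO elongating UMIs. At 10% to 20% late gene UMIs Klk1b8 was at 400 CPM in 523 control cells and 423 CPM in 1480 cKO cells (log2 ratio 0.081, 0.013 to 0.15). At 20% to 30% it was at 636 CPM in 1766 control cells and 613 CPM in 1455 cKO cells (-0.052, -0.093 to -0.012). At 30% or more, control had 1168 cells at 985 CPM (14555 UMIs), and the cKO library had 1 cell. The control cells with the highest Klk1b8 level thus lay in a bin that was almost empty in the cKO library. Because the late gene share itself differed between libraries, the empty bin does not show that cells of that stage were missing. Control cluster 7 and cKO cluster 19 shared Tnp2, Tex37 and Cby3 among their leading genes. In the lower bins Klk1b8 was at 183 and 171 CPM at 5% to 10% and at 51.9 and 51.2 CPM at 1% to 5%, with both intervals of the ratio spanning 0. Under 1%, where the level was lowest, it had 520 UMIs in control and 396 in cKO, at 6.13 CPM in control and a log2 ratio of -0.41 (-0.61 to -0.22).

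Klk1b9 and Klk1b26 differed more than Klk1b8 within the highest bin that both libraries filled. At 20% to 30% late gene UMIs Klk1b9 was at 199 CPM in control and 157 CPM in cKO (-0.35, -0.42 to -0.27), and Klk1b26 at 196 and 162 CPM (-0.27, -0.35 to -0.20). At 10% to 20% their log2 ratios were 0.028 (-0.10 to 0.16) and -0.0068 (-0.13 to 0.12). Per 1000 late gene UMIs over the whole class, Klk1b8 stood at 2.72 in control and 2.60 in cKO, Klk1b9 at 0.804 and 0.685, and Klk1b26 at 0.742 and 0.706. Late gene RNA is part of both measures, and the part of the late gene share in the library difference was not tested.

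**Figure D3:**
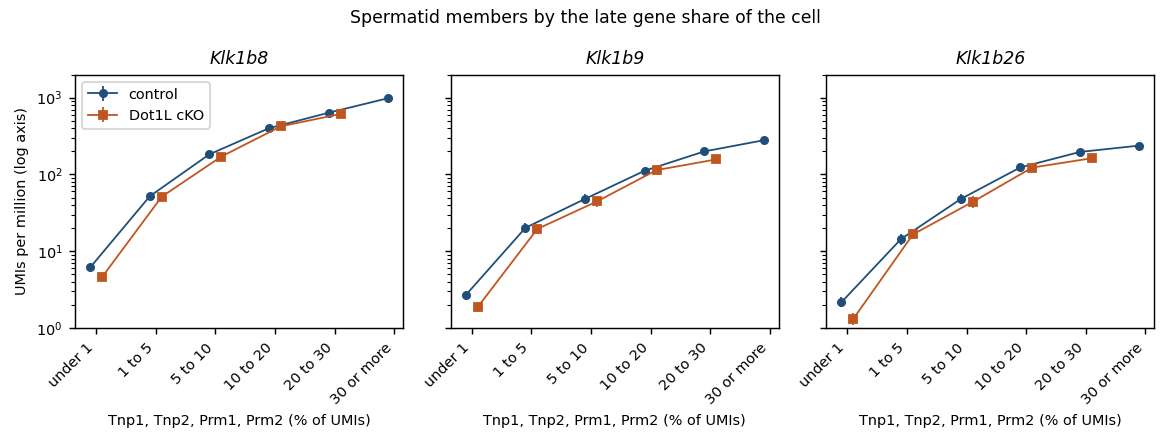
CPM (log axis) of Klk1b8, Klk1b9 and Klk1b26 in cells binned by the percent of UMIs from Tnp1, Tnp2, Prm1 and Prm2, circles for control and squares for cKO, with 95% counting intervals mostly smaller than the symbols. Bins of under 20 cells are not drawn, so the last bin shows control only, at 985 CPM for Klk1b8.

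Levels also differed between single clusters of a class. In control, Klk1b8 was at 9.04 CPM in round cluster 11, 103 in round cluster 2, 598 in elongating cluster 3, 897 in cluster 7 and 573 in cluster 9. In cKO it was at 5.32 CPM in round cluster 16, 174 in round cluster 24, 548 in elongating cluster 14 and 573 in cluster 19. Cluster 10, the elongating cluster that both libraries filled (258 and 211 cells), was far lower, at 131 CPM (44 UMIs) in control and 55.9 CPM (18 UMIs) in cKO. Its late gene share was 5.47% and 2.98% of UMIs. Cluster 7, the highest, was control alone but for 1 cell, and 31.9% of its UMIs were late gene UMIs. Klk1b9 per Klk1b8 UMI was 0.282 (0.274 to 0.292) in cluster 7, 0.375 (0.354 to 0.397) in cluster 9 and 0.249 (0.237 to 0.262) in cKO cluster 19, so the members did not keep one proportion in all elongating clusters.

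In round spermatid-like cells Klk1b8 was higher in cKO, at a log2 ratio of 0.30 (0.22 to 0.38), with 0.25 for Klk1b9 and 0.39 for Klk1b26. None of the 3 measured members was over 1.5-fold lower or higher there, where 7.59% of 17017 measured genes were lower and 27.4% higher. This direction rested on cluster 24, which held 3041 of the 3201 cKO UMIs of Klk1b8. Without it the cKO level came from 160 UMIs and the log2 ratio was -3.32. With cluster 24 counted as elongating instead, the elongating ratio was -0.96, and with both classes pooled -0.74. Round cells set by 1% to 10% late gene UMIs and 3 or more Acrv1 UMIs gave -0.27 (880 and 896 UMIs). The round contrast therefore has no stable direction.

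The Leydig set was led by Klk1b21 and Klk1b24. The Leydig-like cluster held 115 control and 369 cKO cells, and all 12 Leydig markers stood over 2 times above other clusters in it. There Klk1b24 was at 495 CPM (182 UMIs, 426 to 572) in control and 261 CPM (1117 UMIs, 246 to 277) in cKO. Klk1b21 was at 470 CPM (173 UMIs) and 282 CPM (1208 UMIs), Klk1b27 at 196 CPM (72 UMIs) and 147 CPM (631 UMIs), and Klk1b22 at 177 CPM (65 UMIs) and 89.7 CPM (384 UMIs). In control the intervals of Klk1b24 and Klk1b21 overlapped, and so did those of Klk1b27 and Klk1b22. Of the UMIs in kept cells, Leydig-like cells held 86.9% of Klk1b21, 92.9% of Klk1b24, 80.9% of Klk1b27 and all 65 of Klk1b22 in control, and 95.7%, 96.8%, 89.3% and 96.0% in cKO.

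Within Leydig-like cells the expression was uneven. At least 1 UMI of the 4 genes was found in 45.2% of control and 65.0% of cKO cells, and 13 and 83 cells held all 4. In control, 10 cells held 67.7% of the 492 UMIs of the set, and in cKO 10 cells held 24.5% of 3340. Cells with such a UMI were deeper, with medians of 1958 and 4094 UMIs against 920 and 994 in cells without. Thinned to 500 UMIs per cell, Klk1b21 was found in 14.8% of control (8.85 to 22.6) and 22.5% of cKO cells (18.3 to 27.1), against 33.0% and 52.0% unthinned. These intervals overlap, and since the shares go against the CPM below, no order is read from them. In macrophage-like cells, at medians of 2942 and 2399 UMIs, Klk1b21 had 1 UMI in control and 4 in cKO.

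As CPM of the cluster, the 4 genes together were at 1338 in control and 780 in cKO, a log2 ratio of -0.78 (-0.92 to -0.64). Over 1.5-fold lower were 6 of the 7 measured members, the spermatid genes included, where 23.1% of 9040 measured genes were lower and 35.2% higher. The steroidogenic markers were lower with them: the 12 Leydig markers summed to 22366.5 CPM in control and 9103 CPM in cKO. Germ cell markers moved in both directions. All 8 markers of mid to late spermatocytes had UMIs in both libraries and summed to 3069 CPM in control and 6706 CPM in cKO, and the 8 of round spermatids to 612 and 1077 CPM. The 10 markers of elongating spermatids summed to 32197 and 28595 CPM, and the 8 of spermatogonia to 228 and 89.4 CPM. Their part in the Klk1b values was not tested. The 79 cKO cells with 10000 or more UMIs held 84.3% of all UMIs of the cKO cluster, with spermatocyte markers at 7330 CPM and Klk1b21 at 204 CPM. The other 290 cKO cells had Klk1b21 at 704 CPM.

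The direction turned when the cells were set by steroid synthesis or by size. Kept cells with 0.5% or more of their UMIs, and 5 or more UMIs, from 9 steroidogenic genes (Star, Cyp11a1, Cyp17a1, Hsd3b1, Hsd3b6, Insl3, Fdx1, Hsd17b3 and Lhcgr) numbered 77 in control and 252 in cKO. In them Klk1b21 was at 536 and 676 CPM, Klk1b24 at 572 and 625, Klk1b27 at 230 and 367 and Klk1b22 at 208 and 210. The summed log2 ratio was 0.28, and it was 0.33 and 0.49 with the gate at 0.25% and 1%. Within 20% of the 0.5% limit, on either side, lay 11 control and 35 cKO cells. Without cells of 10000 or more UMIs the ratio of the cluster was 0.77, from 188 and 1275 UMIs. This limit took out unlike cells in the 2 libraries. In control, 13 cells of that size held 54.0% of the cluster's UMIs, with the steroidogenic genes at 17845 CPM against 12112 CPM in smaller cells. In cKO the larger cells stood at 4875 CPM and the smaller ones at 13802 CPM. Per 1000 steroidogenic UMIs the set had 88.0 UMIs in control (80.4 to 96.1) and 124 in cKO (120 to 129).

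Most UMIs of the Leydig set lay outside the kept cells: of 491 Klk1b21 UMIs in all control barcodes 199 were in kept cells, and of 2660 in all cKO barcodes 1262. Over all barcodes past the 0.5% gate, 121 control and 426 cKO, Klk1b21 was at 608 CPM (457 UMIs, 554 to 667) in control and 748 CPM (2448 UMIs, 718 to 778) in cKO. Klk1b24 was at 644 CPM (588 to 704) and 657 CPM (629 to 685), and Klk1b22 at 272 CPM (236 to 311) and 239 CPM (222 to 256), both with overlapping intervals. Klk1b27 was at 270 CPM (234 to 310) and 413 CPM (391 to 436). The log2 ratio of Klk1b27, 0.61 (0.40 to 0.83), was the highest of the 4, and that of Klk1b24 was 0.028 (-0.12 to 0.17). Of the 121 control barcodes 43 and of the 426 cKO barcodes 165 had 10% to 20% mitochondrial UMIs, over the limit for kept cells. They held 858 of the 1348 control and 3724 of the 6732 cKO UMIs of the set. The CPM of all 4 genes was higher there than under 10% in both libraries. Intervals of the 2 levels overlapped for Klk1b21, Klk1b24 and Klk1b27 in control and for Klk1b24 in cKO, so no order is read for these.

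**Figure D4:**
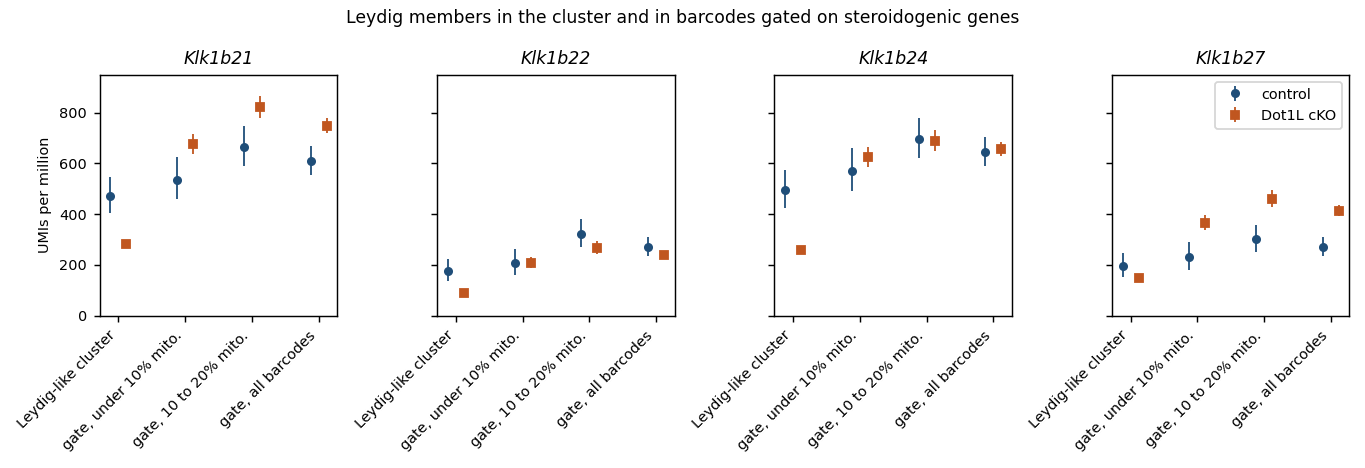
CPM of Klk1b21, Klk1b22, Klk1b24 and Klk1b27 in the Leydig-like cluster and in barcodes past the 0.5% steroidogenic gate, the latter under 10%, at 10% to 20% and at any share of mitochondrial UMIs, circles for control and squares for cKO, with 95% counting intervals. All 4 genes are lower in the cKO cluster, whereas in each gated set Klk1b21 and Klk1b27 are higher in cKO and Klk1b22 and Klk1b24 overlap.

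**Figure D5:**
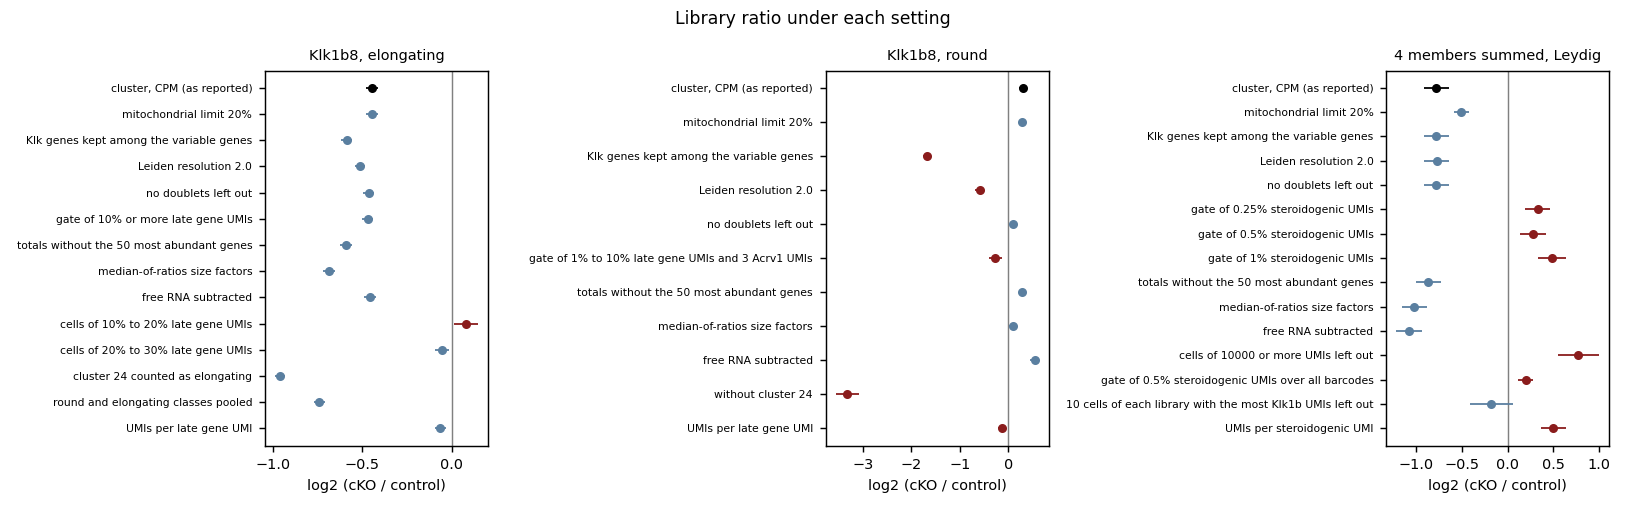
Log2 ratio of cKO to control under each setting tried, for Klk1b8 in elongating and in round spermatid-like cells and for the 4 Leydig members summed, with 95% counting intervals. The top point of each panel is the value on clusters and class totals, and points past the zero line in dark red have the opposite sign.

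The genes whose pattern was most like that of Klk1b8 over 18 points (9 classes in 2 libraries, log2 of CPM + 1) were Prm1 (Pearson r 0.99), Prm2 (0.99), Tnp1 (0.98), Ubl4b (0.98) and Ttc24 (0.98), out of 11524 genes compared. Prm1 and Prm2 encode the protamines and Tnp1 a transition protein. Those most like Klk1b21 were Hsd3b6 (0.98), a steroid dehydrogenase of Leydig cells, Cyp17a1 (0.98), an enzyme of androgen synthesis, Serpina3g (0.97), Hsd17b3 (0.97) and Cstdc2 (0.96). Klk1b8 and Klk1b21 correlated at 0.16 with each other, Klk1b8 with Klk1b26 at 0.96 and with Klk1b9 at 0.92. The points of a library share its free RNA and depth, and these values are descriptions.

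Among 20 other kallikrein genes, 7 had 50 or more UMIs in elongating spermatid-like cells, and 2 were over 1.5-fold lower and 1 higher in cKO. Of all 11790 measured genes there, 11.3% were lower and 28.1% higher, and nothing is read from so small a count. Klk1b3 stood at 51.9 CPM in control and 37.1 CPM in cKO, Klk1, the classical tissue kallikrein, at 34.4 and 20.1 CPM, Klk1b5 at 15.3 and 14.3 CPM and Klk1b4 at 9.73 and 5.62 CPM. The median log2 ratio of the 7 measured kallikreins, which include Klk1b1 (0.672 and 1.47 CPM) and Klk1b16 (5.52 and 6.86 CPM), was -0.21, beside 0.24 for all genes. Klk1b3, Klk1b4, Klk1b5 and Klk1 lie together at the far end of the cluster, after Klk1b24. Genes with UMIs in elongating spermatid-like cells thus lay on both sides of the Leydig set. Klk1 stood no higher in those cells than in Leydig-like cells in either library. The 3′ sharing of these further genes was not measured. In Leydig-like cells 2 of the 20 were measured, Klk1b16 (57.1 and 30.4 CPM) and Klk1 (35.3 and 28.5 CPM).

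Of 17 genes for kallikrein substrates and receptors, 2 were measured in elongating spermatid-like cells. Ace, which encodes angiotensin-converting enzyme and has a germ cell form, was at 206 CPM in control and 226 CPM in cKO. Kng2, a kininogen gene, was at 0.643 and 1.34 CPM. It was the only 1 of the list past 1.5-fold, where 28.1% of all measured genes were higher. In Leydig-like cells Agt, which encodes angiotensinogen, was at 1987 CPM in control and 947 CPM in cKO, and Egfr at 65.2 and 16.8 CPM, whereas Ace, the other measured gene of the list, was higher in cKO at 35.3 and 72.9 CPM. Of 16 protease inhibitor genes, 15 were in the tables and 3 were measured in elongating spermatid-like cells. Spink2, an inhibitor of the acrosome, was at 223 CPM in control and 217 CPM in cKO, close to the level of Klk1b9 in control. In Leydig-like cells Serpina5, an inhibitor of tissue kallikrein, was at 155 and 68.2 CPM and Serpina3c at 120 and 57.5 CPM, both lower in cKO. Spink2 was higher there, at 576 and 1346 CPM, and the median log2 ratio of the 5 measured inhibitors was 0.083. The cluster also held germ cell RNA, with mid to late spermatocyte markers at 3069 CPM in control and 6706 CPM in cKO. The part of this RNA in the Spink2 and Ace levels was not tested, so neither is shown to be higher in Leydig cells. All Leydig-like levels of the listed genes are CPM of the cluster. In it 23.1% of 9040 measured genes were over 1.5-fold lower in cKO and 35.2% higher. The listed genes were not read in the gated cells, where the summed Klk1b ratio turned direction.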

How the data were processed

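The values are UMI counts that the authors deposited as 1 matrix per library. The file headers name Cell Ranger 7.0.0. The submitters' processing notes name mm10 and Seurat 4.1.0. Barcodes below 500 UMIs or 300 genes, or with over 10% mitochondrial UMIs, were left out. Scrublet's own threshold called 0 doublets, so one that catches 25% of simulated doublets was set after the scores were seen (438 control and 719 cKO cells left out), and most doublets remain. Clustering used scanpy 1.11.5 (2000 variable genes without Klk, Dot1l, histone, Tnp and Prm genes, 30 components, 20 neighbours, Leiden resolution 1). A cluster was named from 3 or more fixed markers over 2 times above other clusters, a threshold set after clusters were seen, and names may differ from the study's. Names with more markers among the 10 leading genes came first, and a somatic name needed at least 1 there. Clusters without one there and of low depth beside their class stayed unnamed. Clusters 8 and 18, nearest to round spermatids, were left out of the round class in this way. In control 43.9% and in cKO 33.0% of cells stayed unnamed. Counts were summed per class. Levels carry exact Poisson, shares Clopper-Pearson and ratios exact conditional 95% intervals. The ratio was run on counts simulated from the Poisson model that its interval assumes. Such a run checks the calculation and cannot check variation between cells or libraries. No test was possible with 1 library per group. Genes with a total of at least 50 UMIs in a class are called measured. Counts of genes past a fold and list medians add 0.5 to each summed count.

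Members and lists were chosen with earlier results of these data known. Named were all 7 members, the 5 genes most correlated with the highest member of each set (20 or more CPM in some class, 100 or more UMIs, passing over Klk, predicted and clone symbols) and up to 4 measured genes per list. Transcripts came from GENCODE vM21, promoters from RefSeq (all 7 members matched), and alignments from mafft 7.526. The 200 bases of Klk1b26 are not printed because GENCODE vM21 starts its transcript further upstream. Free RNA per cell was estimated from spermatid markers in macrophage-like and mesenchymal-like cells, at no more than 1487 UMIs in control and 1028 in cKO. In small cells it was held to 48.4% of the cell's UMIs in control and 37.8% in cKO.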

Additional observations from a re-analysis of the deposited data

How the results depend on the processing

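No paired analysis was possible because each group has 1 library, so no replicate was left out. Values are log2 ratios of cKO to control unless said otherwise. The late gene bins, the settings on cluster 24, the pooled classes, both per-UMI scalings, the cell size limits, leaving out the 10 cells with the most Klk1b UMIs and the gate over all barcodes were chosen after seeing the data. Of the values behind the main comparisons 12 turned direction, 22 moved and 13 kept their value within its interval. The cause was not tested for any of them.

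Klk1b8 in elongating spermatid-like cells (-0.45) was -0.59 with Klk genes kept for clustering, -0.51 at Leiden resolution 2, -0.59 with totals without the 50 most abundant genes and -0.69 with median-of-ratios size factors. It was -0.96 with cluster 24 counted as elongating, -0.74 with both classes pooled, -0.063 per late gene UMI and -0.052 at 20% to 30% late gene UMIs. At 10% to 20% it turned to 0.081, and Klk1b9 to 0.028. The summed level of the 3 spermatid genes over both libraries, 1060 CPM, was 1042 with Klk genes kept, 1027 at resolution 2 and 1858 without the 50 most abundant genes.

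In round spermatid-like cells the ratios of Klk1b8, Klk1b9 and Klk1b26 (0.30, 0.25 and 0.39) turned to -1.69, -1.56 and -1.61 with Klk genes kept, -0.59, -0.53 and -0.49 at resolution 2, and -0.27, -0.15 and -0.094 with the late gene and Acrv1 gate. They were -3.32, -2.98 and -2.98 without cluster 24 and -0.13, -0.18 and -0.043 per late gene UMI. Klk1b8 there was 0.10 with doublets kept, 0.10 with median-of-ratios factors and 0.54 with free RNA subtracted.

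In Leydig-like cells the sum of 4 genes (-0.78) was -0.50 at a mitochondrial limit of 20%, -1.02 with median-of-ratios factors and -1.08 with free RNA subtracted. Without the 10 cells of each library with the most Klk1b UMIs the sum was -0.18. Those cells were picked by the measured genes and held 67.7% of the control and 24.5% of the cKO UMIs. A shift toward cKO was thus built into this setting, and no direction is read from it. Klk1b22 was 0.39 there, from 12 control UMIs, with an interval that spans 0 (-0.44 to 1.36). The sum turned to 0.33, 0.28 and 0.49 with gates of 0.25%, 0.5% and 1%, 0.77 without cells of 10000 or more UMIs, 0.20 over all barcodes and 0.50 per steroidogenic UMI. In that order of settings Klk1b21 was 0.38, 0.33, 0.56, 0.59, 0.30 and 0.54, Klk1b24 0.17, 0.13, 0.33, 0.72, 0.028 and 0.35, and Klk1b27 0.71, 0.67, 0.77, 1.02, 0.61 and 0.87. Klk1b22 was 0.11, 0.014, 0.30, 1.21, -0.19 and 0.30. The summed level, 824 CPM, was 1247 at the 20% limit and 994 without the 50 most abundant genes. Of the 12 listed other genes measured in elongating spermatid-like cells, 4 passed 1.5-fold, where 11.3% of all measured genes were lower and 28.1% higher. With 20 or more UMIs for a measured gene, 8 of 17 passed, beside 12.1% lower and 31% higher of all genes. At over 2-fold 2 of the 12 passed, beside 4.98% and 12.3%.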
